A study of Mus musculus with 6 samples.

Results

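The Hox genes encode homeodomain transcription factors that lie in 4 clusters, Hoxa to Hoxd. They were followed here in primary chondrocytes from the ribs of Slc39a13-KO mice and of wild-type mice. Every probe set annotated to exactly 1 symbol made of Hox, a cluster letter and a number from 1 to 13 was taken, with antisense genes left out and no limit on brightness. This gave 48 probe sets of 33 genes, among 34945 probe sets of 18193 genes with 1 symbol on the array. Other Hox genes were not analysed here. A single probe set represented each of 22 genes, and several represented each of the other 11.

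The study asked how gene expression differs between wild-type chondrocytes and chondrocytes that lack Slc39a13, a zinc transporter of the ZIP family. Total RNA of 3 wild-type and 3 Slc39a13-KO samples was each hybridized to an Affymetrix Mouse Genome array, with 1 array per RNA sample. Rib cages of newborn mice were digested with collagenase, and the cells were strained and grown in medium with serum, with no sorting step described. The KO mice carried a germline deletion in which a Neo cassette replaced internal exons of Slc39a13, made in R1 embryonic stem cells. The strain, sex and number of the mice behind each array and any treatment of the cultures are not given in the sources used here. Nor is it given whether the 3 samples of a group came from separate animals or separate cultures. The p-values below therefore measure the spread between these samples, which may be technical.

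Along the body axis, Hox genes are switched on in the order in which they lie in their clusters. Genes of the same number in different clusters are paralogs, and a low number goes with expression that begins near the hindbrain and neck, a high number with the loin, sacrum and tail. Genes in the middle of this order pattern the thoracic vertebrae and the ribs, and cells grown out of the body often keep the Hox genes of the place they came from. For description, paralog groups 1 to 4, 5 to 9 and 10 to 13 are treated below as anterior, middle and posterior.

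The arrays carried no sequence readout, but the stretch before a Hox transcription start shows the base composition and homeodomain core motif that differ between members. Those of 4 genes are given to show 1 anterior, 1 middle and 1 posterior gene, and Hoxd9, whose signals are described below. Each is the 250 bases before a RefSeq start on GRCm38.p6, read 5′ to 3′ on the gene's strand, with the motif TAAT or its reverse complement ATTA in capitals. The windows are chr6:52164832-52165081 on the minus strand for Hoxa2, chr6:52218574-52218823 on the minus strand for Hoxa7, chr2:74697513-74697762 on the plus strand for Hoxd9 and chr2:74667975-74668224 on the plus strand for Hoxd13.
Hoxa2: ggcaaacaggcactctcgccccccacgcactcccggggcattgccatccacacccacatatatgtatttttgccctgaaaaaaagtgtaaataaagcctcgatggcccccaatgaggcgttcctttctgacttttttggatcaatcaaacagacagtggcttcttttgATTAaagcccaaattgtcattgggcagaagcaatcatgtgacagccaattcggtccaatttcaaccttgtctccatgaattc
Hoxa7: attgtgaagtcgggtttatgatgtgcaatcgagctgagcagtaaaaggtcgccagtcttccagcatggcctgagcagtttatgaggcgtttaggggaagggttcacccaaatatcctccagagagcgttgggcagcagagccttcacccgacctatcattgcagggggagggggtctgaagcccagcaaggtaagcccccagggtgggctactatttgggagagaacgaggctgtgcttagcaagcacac
Hoxd9: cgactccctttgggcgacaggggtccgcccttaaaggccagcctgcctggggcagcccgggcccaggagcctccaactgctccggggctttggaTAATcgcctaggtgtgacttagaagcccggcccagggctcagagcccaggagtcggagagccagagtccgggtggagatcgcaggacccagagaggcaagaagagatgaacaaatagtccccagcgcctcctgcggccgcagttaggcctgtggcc
Hoxd13: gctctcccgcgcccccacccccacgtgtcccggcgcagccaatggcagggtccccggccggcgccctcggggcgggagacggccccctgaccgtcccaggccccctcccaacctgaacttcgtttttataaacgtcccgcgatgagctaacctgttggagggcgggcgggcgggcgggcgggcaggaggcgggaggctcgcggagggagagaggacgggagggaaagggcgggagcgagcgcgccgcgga

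These 4 windows ran from 46.4% G and C with 6 CpG pairs for Hoxa2 to 74.4% with 31 CpG pairs for Hoxd13. The Hoxa7 window held 54.8% G and C and 7 CpG pairs, and that of Hoxd9 held 65.2% and 13. The motif, searched on both strands, occurred once in the Hoxa2 and Hoxd9 windows and in neither of the other two. In all, 21 such windows of 19 member genes were in the table. Their median was 59.2% G and C and 13 CpG pairs, and 16 of 21 (76.2%) held the motif. Over all 32851 windows of the same length the medians were 52.4% and 6, and 54.9% held the motif. A match of 4 letters describes the sequence and is not a binding site. Several Hox windows overlap a neighbouring transcript. Hoxa10 and Hoxd11 have more than 1 window each, so the windows are not all independent of each other.

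Before the Hox values, the labels and cells were checked. The Slc39a13 signal was 901, 1081 and 991 in wild-type and 100, 196 and 165 in KO cells, a log2 fold change (KO minus wild-type) of -2.67 (SE 0.22, n = 3 per group, adjusted p = 0.000535, limma). Whether this probe set lies within the deleted exons is not known here. All 12 chondrocyte markers were above the filter described below, with 5 genes higher and 0 lower in KO (adjusted p below 0.05, limma). Their summed signal ranged from 129775 to 145752 in wild-type and from 172081 to 230965 in KO cells. Over all tested probe sets, 3.44% were called higher and 3.37% lower in KO at the same threshold. The arrays also carried markers of cells other than chondrocytes. The summed signal of 12 mesothelial markers was 9574 to 16387 on the wild-type and 1358 to 2263 on the KO arrays, with 10 of the 12 genes lower in KO. That of the 9 fibroblast and perichondrium markers on the array was 61998 to 75909 and 89396 to 112136, with 5 genes higher and 2 lower. Of 10 skeletal muscle markers 5 were tested, with 1 gene higher and 1 lower, and of 8 macrophage and 8 endothelium markers 5 and 1 were tested, with 0 called (limma; 2 macrophage and 0 endothelium probe sets at an unadjusted p below 0.05). KO replicate 1 had a median signal of 108, against 80.7 to 88.4 on the other 5 arrays. Its correlation with them was 0.940 to 0.950 (Pearson's r of log2 values over the tested probe sets), while the others correlated at 0.960 to 0.980. Xist, which is transcribed from an inactive X chromosome, was bright on wild-type replicate 3 and KO replicate 2 only, at 1462 and 1721 with 1427262_at against at most 22.4 on the other arrays, and likewise with its other 2 probe sets (198 and 390 against at most 57.6, and 5194 and 6445 against at most 107). In RNA of such mixed cultures, fewer cells of a type and less RNA per cell cannot be told apart. The part of these differences in any Hox value was not tested, other than by leaving out arrays.

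The signals are on a linear scale, and every array has the same trimmed mean, 500.003. A probe set was tested if its mean of log2(signal + 7.96) over the 6 arrays reached 5.80, the 40th percentile of the table, which corresponds to a signal of 47.9. Of the 48 Hox probe sets, 27 of 20 genes were tested, and 21 were dimmer. The dim ones are called under the filter below, and a dim signal sets no limit on a gene's expression, since probe sets bind with unequal strength. For the same reason the signals of different genes are not ranked as expression levels.

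The chondrocyte cultures of both groups, which are mixed, carried signal from anterior and middle Hox genes, while the posterior genes lay around the filter level or under it. Counted over the filter level of 47.9 on all 6 arrays were 7 of 16 anterior, 15 of 20 middle and 0 of 12 posterior probe sets. No posterior probe set exceeded a signal of 118 on any array. By array, 29 Hox probe sets were over the level on each wild-type array, and 32, 29 and 32 on KO replicates 1, 2 and 3. In all, 22 probe sets of 15 genes were over the level on every array and 10 on none.

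**Figure D1:**
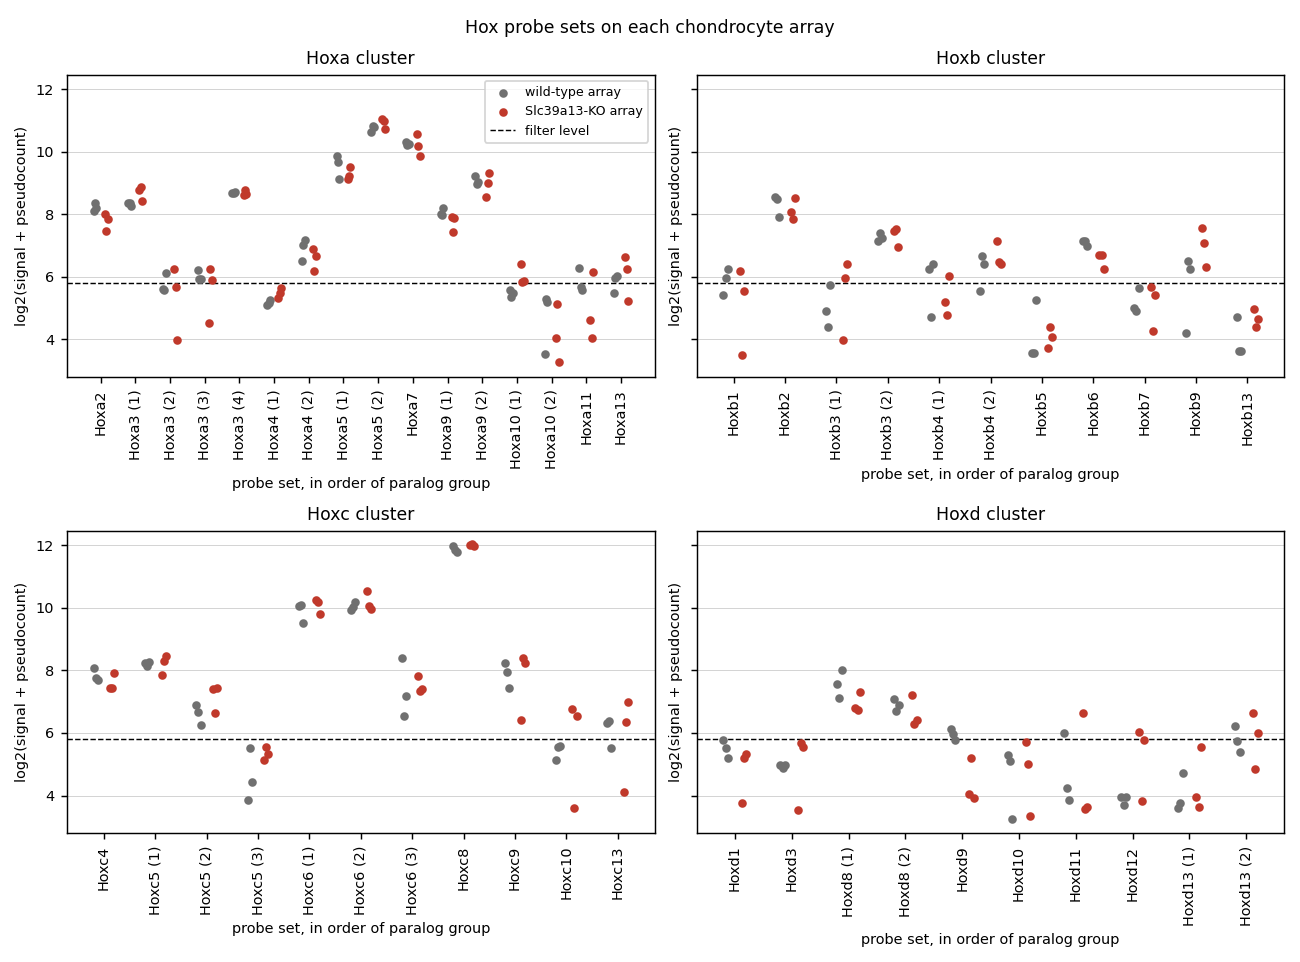
Signals of all 48 Hox probe sets as log2(signal + pseudocount of 7.96), 1 point per array (grey, 3 wild-type; red, 3 Slc39a13-KO), in 4 panels for the Hoxa, Hoxb, Hoxc and Hoxd clusters and in order of paralog group along each horizontal axis. Numbers in brackets tell apart the probe sets of a gene, in the order of their identifiers, and the dashed line is the filter level of 5.80. Middle genes such as Hoxa5, Hoxa7, Hoxc6 and Hoxc8 lie well above the line in both groups, and posterior genes lie around or below it.

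The middle genes held the brightest probe sets of the family. Hoxc8, a paralog group 8 gene active in the thorax, had signals of 4012, 3679 and 3512 in wild-type and 4092, 4166 and 4003 in KO cells. The ranges overlapped at 1 KO array, which lay just under the highest wild-type array. The log2 fold change was 0.13 (SE 0.08, 95% confidence interval -0.04 to 0.31, adjusted p = 0.356, limma), so that a mean change of more than 1.24-fold upward lies outside the interval. Hoxa7, whose product acts in the thoracic region, had 1261, 1187 and 1207 in wild-type and 1524, 1162 and 928 in KO cells. The KO arrays lay on both sides of the wild-type arrays, and the log2 fold change was -0.04 (95% confidence interval -0.39 to 0.30).

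Hoxa5, a gene of the neck and upper thorax, was measured by a pair of probe sets. With 1448926_at the signals were 1589, 1799 and 1744 in wild-type and 2086, 2032 and 1695 in KO cells, and 2 of the 3 KO arrays lay above all wild-type arrays. Its log2 fold change was 0.17 (SE 0.10, 95% confidence interval -0.05 to 0.40, adjusted p = 0.347, limma). With 1443803_x_at they were 923, 802 and 553 against 549, 588 and 716, and the log2 fold change had the other sign, -0.27 (adjusted p = 0.423, limma). Hoxc6, another gene of the upper thorax, was measured by 3 probe sets, with 1051, 1082 and 721 in wild-type and 1201, 1146 and 890 in KO cells for 1427361_at. The log2 fold changes of its probe sets were 0.14 to 0.19, and the groups overlapped for each of them.

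In both directions, no Hox probe set passed the test. Of the 27 tested, 0 were higher and 0 lower in KO cells at an adjusted p below 0.05 (limma with Benjamini-Hochberg adjustment over 23294 probe sets). Over all tested probe sets 802 (3.44%) were higher and 785 (3.37%) lower, a split that became 131 and 259 when each array was centred on its median. At an unadjusted p below 0.05 there were 2 of 27 Hox probe sets (7.41%), against 22.6% of all. The 3 KO arrays lay above all wild-type arrays for 1 Hox probe set (3.70%) and below them for 3 (11.1%), against 15.1% and 13.7% of all. Without the filter, 3.84% of 34945 probe sets passed, and 0 of 48 Hox probe sets, with 3 at an unadjusted p below 0.05. The methods' t-test and limma without its trend also called 0 Hox probe sets, with 1 and 3 at an unadjusted p below 0.05.

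**Figure D2:**
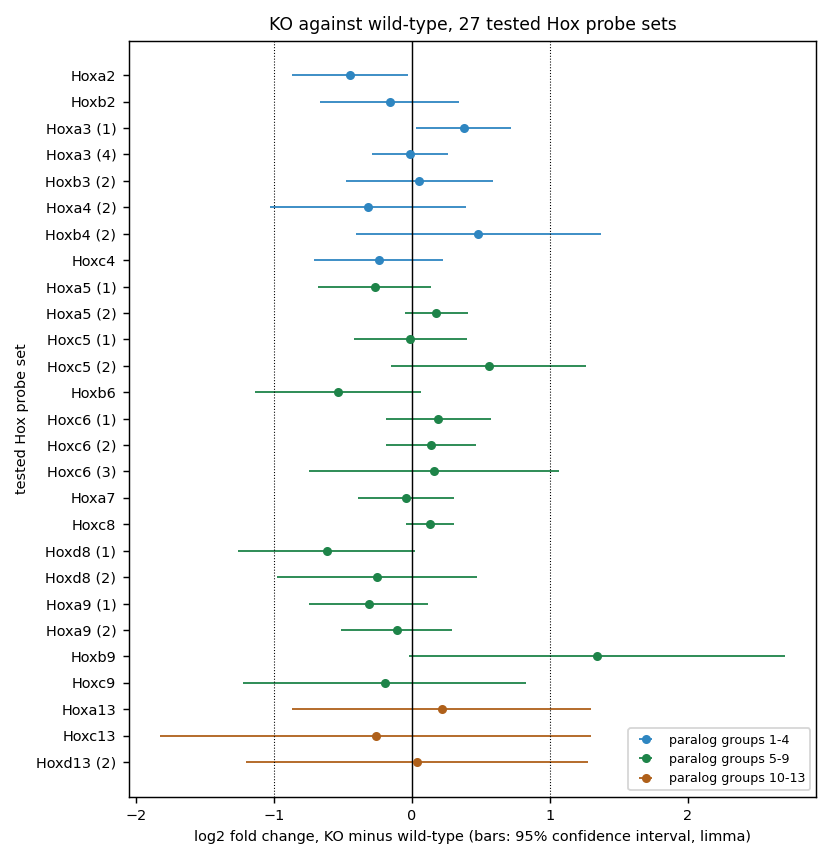
Log2 fold change of each of the 27 tested Hox probe sets on the horizontal axis (KO minus wild-type, 3 arrays per group) with limma's 95% confidence interval as bars, in order of paralog group and coloured by anterior (1-4), middle (5-9) and posterior (10-13) groups. The dotted lines mark a 2-fold change in either direction. The intervals of Hoxa2 and of 1 Hoxa3 probe set leave out 0 before adjustment, and that of Hoxb9 spans -0.02 to 2.70.

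The Hox changes were centred near zero. The median log2 fold change was -0.01, with 12 positive and 15 negative values, beside a median of 0.01 over all tested probe sets. The median size of change regardless of sign was 0.22 for both. Hoxb9 was the single Hox probe set with a fitted change of over 2-fold, where 3.46% of all probe sets had one. Of the 6 genes with several tested probe sets (Hoxa3, Hoxa5, Hoxa9, Hoxc5, Hoxc6 and Hoxd8), the signs were the same in 3.

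A missed threshold does not show equal expression, and the precision varied with brightness. The confidence interval lay wholly inside a 2-fold change in either direction for 16 of the 27 Hox probe sets (59.3%), against 73.1% of all. These were 6 of 8 anterior, 10 of 16 middle and 0 of 3 posterior probe sets. The median distance from the estimate to the end of the interval was 0.50 (log2) for Hox probe sets and 0.38 for all. 

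**Figure D3:**
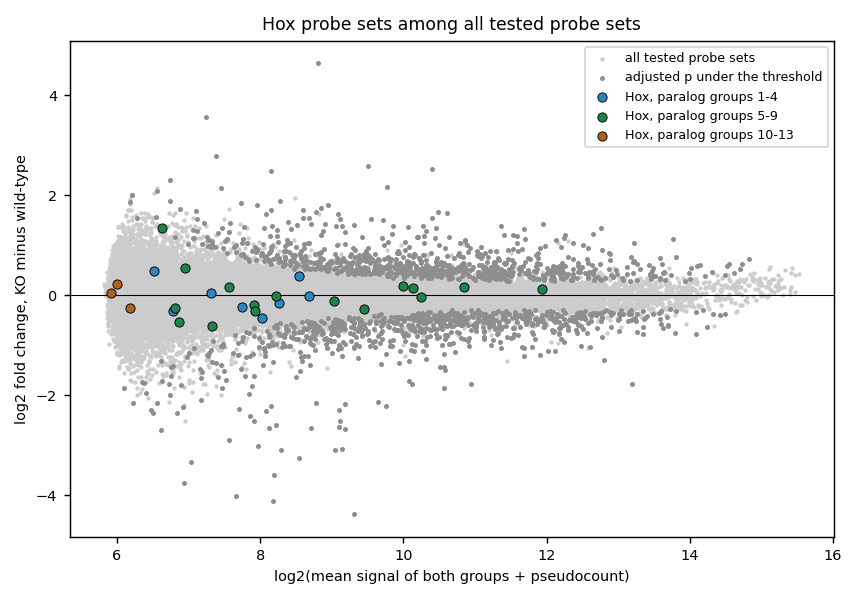
Log2 fold change (KO minus wild-type, vertical axis) against log2 of the mean signal of both groups plus the pseudocount of 7.96 (horizontal axis) for all 23294 tested probe sets in light grey, those with an adjusted p below 0.05 in dark grey and the 27 tested Hox probe sets in colour by paralog group. Every Hox point lies within the light grey cloud, and Hoxb9, at 1.34, is the highest of them.

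Among the anterior genes, which are known for patterning the hindbrain and neck, Hoxa3 and Hoxa2 had the lowest p of the 27 tested Hox probe sets. The Hoxa3 probe set 1427433_s_at gave 322, 320 and 298 in wild-type and 434, 465 and 338 in KO cells. All 3 KO arrays lay above the wild-type arrays. The log2 fold change was 0.38 (SE 0.15, 95% confidence interval 0.03 to 0.72, adjusted p = 0.182, limma). The other tested Hoxa3 probe set, 1452421_at, gave 403, 403 and 411 against 384, 434 and 390, with overlapping groups and a log2 fold change of -0.01 (adjusted p = 0.962, limma). The suffix of 1427433_s_at marks probes that can bind several transcripts. Another 2 Hoxa3 probe sets were under the filter, with overlapping groups. They gave 41.5, 39.8 and 61.0 in wild-type and 68.2, 42.9 and 7.75 in KO cells with 1429398_at, and 66.5, 52.5 and 53.3 against 15.1, 68.0 and 52.3 with 1431392_at.

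Hoxa2, which sets the identity of the hindbrain and of the branchial arches, gave 269, 319 and 286 in wild-type and 249, 168 and 222 in KO cells. The KO arrays all lay below the wild-type arrays. The log2 fold change was -0.45 (SE 0.19, 95% confidence interval -0.87 to -0.03, adjusted p = 0.190, limma). The other tested anterior probe sets had overlapping groups. Their log2 fold changes ran from -0.32 for Hoxa4 (1427354_at) through -0.24 for Hoxc4, -0.16 for Hoxb2 and 0.05 for Hoxb3 (1456229_at) to 0.48 for Hoxb4 (1460379_at, adjusted p = 0.518, limma). Hoxb1, Hoxd1 and Hoxd3 had no tested probe set. Over the 8 tested anterior probe sets, the median against the wild-type mean was -0.05, -0.15 and 0.01 (log2) on KO replicates 1, 2 and 3, and -0.06, 0.13 and -0.03 on the wild-type replicates.

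Among the tested middle probe sets, that of Hoxb9 had the largest fitted change and the widest spread between wild-type arrays. This paralog group 9 gene, which acts with Hoxa9, Hoxc9 and Hoxd9 on the lower thoracic ribs, gave 10.5, 83.1 and 68.0 in wild-type and 183, 128 and 71.6 in KO cells. The lowest KO array lay below the highest wild-type array, and the wild-type signals differed 7.90-fold among themselves. The log2 fold change was 1.34 (SE 0.61, 95% confidence interval -0.02 to 2.70, adjusted p = 0.229, limma). Wild-type replicate 1 lay far below the filter level, and without it the log2 fold change was 0.62 (adjusted p = 0.509, limma).

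Hoxb6 and Hoxd8, both active in the thoracic region, had lower mean signals in KO cells without passing the test. Hoxb6 gave 134, 133 and 120 in wild-type and 96.9, 96.4 and 69.0 in KO cells, so that the groups did not overlap. Its log2 fold change was -0.53 (SE 0.27, 95% confidence interval -1.13 to 0.07, adjusted p = 0.275, limma). Hoxd8 gave 182, 131 and 250 against 104, 98.1 and 151 with 1431099_at, with 1 KO array above the lowest wild-type array, and a log2 fold change of -0.62 (SE 0.29, 95% confidence interval -1.26 to 0.02, adjusted p = 0.236, limma). Its other probe set, 1433638_s_at, gave 128, 95.7 and 112 against 141, 70.4 and 77.5, and its log2 fold change was -0.25 (adjusted p = 0.694, limma).

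Hoxc5, a gene of the neck and upper thorax, and Hoxa9, a gene of the lower thorax, were each tested with a pair of probe sets. For Hoxc5, 1450832_at gave 111, 93.1 and 69.2 in wild-type and 160, 92.6 and 167 in KO cells, where KO replicate 2 lay among the wild-type arrays and the others above them. The log2 fold change was 0.55 (SE 0.32, 95% confidence interval -0.15 to 1.26, adjusted p = 0.334, limma). For 1439885_at it was -0.01 (adjusted p = 0.974, limma), with 291, 277 and 299 in wild-type and 222, 306 and 346 in KO cells. Another Hoxc5 probe set, 1456301_at, was under the filter, at 6.49, 38.4 and 13.7 against 27.5, 38.8 and 31.8, with overlapping groups. For Hoxa9, 1421579_at gave 251, 242 and 285 against 235, 163 and 229. The KO arrays lay below the wild-type arrays there, at a log2 fold change of -0.31 (adjusted p = 0.372, limma). With 1455626_at the groups overlapped, at 591, 489.5 and 512 against 371, 505 and 624, and the log2 fold change was -0.11. The remaining tested middle gene, Hoxc9, gave 296, 242 and 164 in wild-type and 78.2, 328 and 291 in KO cells. Its KO replicate 1 was 4.19-fold below the highest KO array, and the log2 fold change was -0.20 (adjusted p = 0.836, limma), which turned to 0.43 without that array.

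The median over the 16 tested middle probe sets, taken against the wild-type mean, was 0.21 (log2) on KO replicate 1, -0.01 on KO replicate 2 and -0.03 on KO replicate 3. On the wild-type arrays it was 0.08, -0.02 and -0.03. The highest of these medians was that of KO replicate 1, the array with the higher median signal. This did not hold for every middle probe set, and that array was the lowest of all for some, such as Hoxc9. The wild-type values are taken from a mean that includes them, which draws them toward zero. Leaving out KO replicate 1 gave 0 Hox calls as well, with 0.105 as the lowest adjusted p of a Hox probe set (Hoxa2, limma).

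The posterior genes, which pattern the loin, tail, hind limb and genital region, were near the filter level or under it. Of 12 probe sets 3 were tested, and for each the KO arrays lay on both sides of the wild-type arrays. Hoxa13, a gene of the distal limb and urogenital tract, gave 37.0, 54.4 and 57.0 in wild-type and 91.4, 67.8 and 29.9 in KO cells. Hoxc13, known for hair and nail, gave 72.7, 75.7 and 38.1 against 9.43, 74.3 and 118. Hoxd13, a gene of the digits, gave 67.4, 45.2 and 34.5 against 91.0, 20.9 and 56.1 with 1440626_at. Their log2 fold changes were 0.22, -0.26 and 0.04, and their confidence intervals extended past a 2-fold change upward for all 3 and downward for Hoxc13 and Hoxd13. Each value changed sign with an array left out: Hoxa13, Hoxc13 and Hoxd13 were at -0.08, 0.59 and -0.37 without KO replicate 1, and Hoxd13 also turned negative without wild-type replicate 3 or KO replicate 3.

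The 21 probe sets under the filter gave signals of 1.51 to 101. They held 13 genes with no tested probe set, which were Hoxa10, Hoxa11, Hoxb1, Hoxb5, Hoxb7, Hoxb13, Hoxc10, Hoxd1, Hoxd3, Hoxd9, Hoxd10, Hoxd11 and Hoxd12. Hoxd9 was the member with the lowest p when all probe sets were tested without a filter. It gave 61.7, 54.2 and 46.8 in wild-type and 8.61, 29.2 and 7.19 in KO cells, so that every KO array lay below every wild-type array, at a log2 fold change of -1.56 (adjusted p = 0.152, limma without the filter). At signals this low the size of the change depends on the pseudocount. For Hoxa10 (1431475_a_at) the KO arrays lay above the wild-type arrays, at 76.4, 49.3 and 50.8 against 39.9, 32.6 and 36.6, and likewise for a dim Hoxa4 probe set (1420226_x_at), at 31.8 to 42.2 against at most 30.6. Hoxd12 gave 7.65, 4.89 and 7.56 in wild-type and 57.8, 6.16 and 46.3 in KO cells, with KO replicate 2 among the wild-type arrays. The remaining probe sets under the filter had overlapping groups. Of the 21, the KO arrays thus lay above the wild-type arrays for 2 and below them for 1. Over all tested probe sets these shares were 15.1% and 13.7%, and the shares over all probe sets under the filter were not computed.

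By cluster, the Hoxa and Hoxc clusters held most of the tested probe sets. In the Hoxa cluster on chromosome 6, 10 of 16 probe sets were tested and 9 were over the filter level on all arrays. In the Hoxc cluster on chromosome 15 these were 9 and 8 of 11, in the Hoxb cluster on chromosome 11 they were 5 and 3 of 11, and in the Hoxd cluster 3 and 2 of 10. The median log2 fold changes of the tested probe sets were -0.08, 0.13, 0.05 and -0.25 for Hoxa, Hoxc, Hoxb and Hoxd. The last rests on 2 probe sets of Hoxd8 and 1 of Hoxd13. The Hoxd cluster lies on chromosome 2, as does Slc39a13.

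The proteins that work with Hox factors on DNA were next described. Pbx, Meis, Pknox and Tgif proteins carry a homeodomain with an insertion of 3 residues, known as TALE, and Pbx and Meis proteins bind DNA together with Hox proteins. The list also held Hmbox1, a homeobox gene that belongs to none of these 4 families. Of the 10 tested genes of this list with 22 probe sets, 0 probe sets were higher and 1 was lower in KO cells. Over all tested probe sets 3.44% were higher and 3.37% lower. The median log2 fold change of the list was 0.05. Meis2 fell with 1447861_x_at, from 773, 646 and 761 to 266, 267 and 572. The groups did not overlap, and the log2 fold change was -1.06 (SE 0.26, adjusted p = 0.0405, limma). The suffix of 1447861_x_at marks a probe set with probes that can also bind other transcripts. The other 3 Meis2 probe sets did not pass, at -0.52, -0.35 and -0.13 on the log2 scale (limma's adjusted p = 0.0504, 0.533 and 0.540). The call was also lost on leaving out any of the 3 wild-type arrays (adjusted p = 0.138, 0.107 and 0.124 without replicates 1, 2 and 3), KO replicate 1 (0.0827) or KO replicate 2 (0.119).

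**Figure D4:**
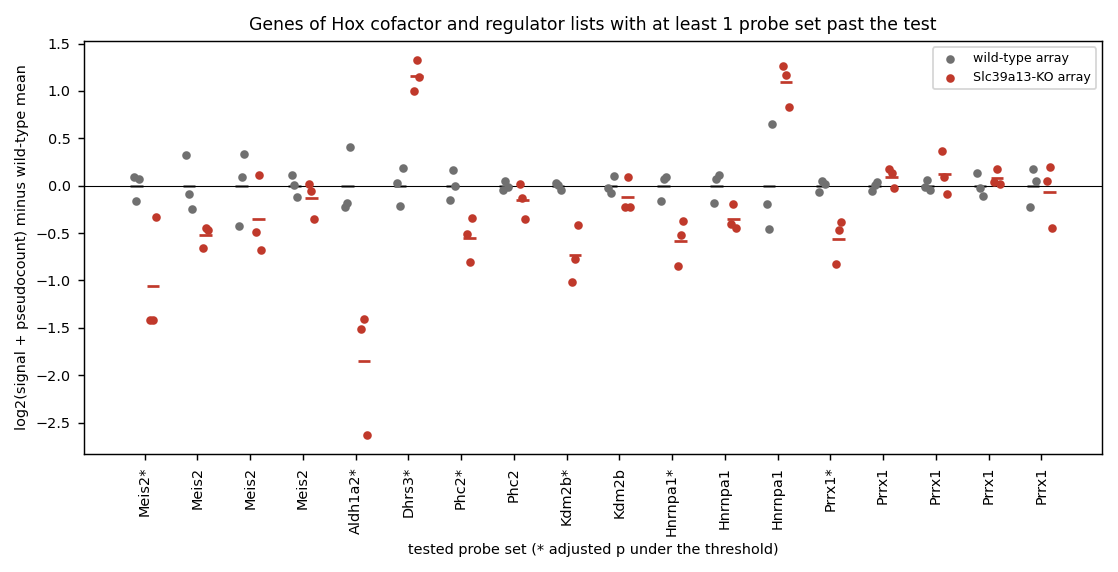
Every tested probe set of the 7 genes of the Hox cofactor, regulator, neighbour and body wall lists with at least 1 probe set past the test, as the difference of log2(signal + 7.96) from the mean of the wild-type arrays, 1 point per array (grey, 3 wild-type; red, 3 KO) and a bar for the group mean. An asterisk marks an adjusted p below 0.05. Dhrs3 lies above and Aldh1a2 below 0 on all KO arrays, while for Meis2, Phc2, Kdm2b, Hnrnpa1 and Prrx1 only 1 of several probe sets is marked.

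A pair of genes of retinoic acid metabolism passed the test, in opposite directions. Retinoic acid, Cdx factors and Gdf11 are known to set where Hox genes are switched on in the embryo. All Cdx and Gdf11 probe sets were under the filter, so the tested genes of this list were those of retinoic acid. Of these 13 tested genes with 16 probe sets, 1 rose and 1 fell, beside 3.44% higher and 3.37% lower over all tested probe sets. The median log2 fold change of the list was 0.04. Dhrs3, a reductase that turns retinaldehyde back to retinol, rose from 733, 617 and 821 to 1440, 1821 and 1598 (log2 fold change 1.16, SE 0.13, adjusted p = 0.00155, limma). All KO arrays lay above all wild-type arrays, and the call held on leaving out each array. Aldh1a2, an enzyme that makes retinoic acid from retinaldehyde, fell from 221, 228 and 346 to 85.7, 93.2 and 35.1 (log2 fold change -1.85, SE 0.36, adjusted p = 0.0152, limma). The groups lay apart, but the adjusted p was 0.0547, 0.0653 and 0.0820 without wild-type replicates 1, 2 and 3. Aldh1a2 moved in the direction of the mesothelial marker sums given above and Dhrs3 in the opposite direction, and the part of those cells in these values was not tested.

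Polycomb and trithorax proteins keep Hox genes silent or active after the early signals have gone. Of 30 tested genes with 65 probe sets, 0 probe sets were higher and 2 were lower, beside 3.44% and 3.37% of all tested probe sets. The median log2 fold change of these 65 was 0.04. Phc2, a subunit of Polycomb repressive complex 1, fell with 1416048_at from 1702, 2124 and 1887 to 1333, 1085 and 1491 (log2 fold change -0.55, adjusted p = 0.0341, limma), with groups apart. Its other probe set did not pass (log2 fold change -0.16, adjusted p = 0.406). Kdm2b, which recruits Polycomb proteins to CpG-rich DNA, fell with 1459861_s_at from 2049, 2013 and 1944 to 983, 1169 and 1498 (log2 fold change -0.74, adjusted p = 0.0129, limma), also with groups apart, and its other probe set did not pass (-0.12, adjusted p = 0.609). The Phc2 call was lost without wild-type replicate 1, 2 or 3 (adjusted p = 0.0636, 0.155 and 0.106), without KO replicate 2 (0.0884) and with the replicate number as a block (0.0781). The Kdm2b call was lost without wild-type replicate 1 or 2 (0.0634 and 0.0673), and the suffix of 1459861_s_at marks probes that can bind several transcripts. Cbx7, a Polycomb gene with no tested probe set, was named after its values were seen. With 1433557_at it gave 92.3, 91.8 and 50.8 in wild-type and 6.34, 11.3 and 5.77 in KO cells. Its log2 fold change was -2.43 (adjusted p = 0.0244, limma without the filter), a size that depends on the pseudocount. The groups overlapped for 1420039_s_at and 1449713_at of this gene.

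Of 19 tested genes that lie next to the Hox clusters, with 39 probe sets, 0 probe sets were higher and 1 was lower. The shares over all tested probe sets were 3.44% and 3.37%. The median log2 fold change of the 39 was 0.00 to 2 decimals. Hnrnpa1, an RNA-binding protein encoded near the Hoxc cluster, fell with 1436549_a_at from 2568, 3020 and 3063 to 1593, 1996 and 2211 (log2 fold change -0.58, adjusted p = 0.0253, limma). Its groups lay apart, while its other 2 probe sets, at -0.35 and 1.09 on the log2 scale, did not pass (limma's adjusted p = 0.0784 and 0.0811). The call was lost without wild-type replicate 2 or 3 (0.116 and 0.0990) or KO replicate 2 (0.0598).

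Genes that pattern somites and ribs, and genes of limb and body wall identity, completed the description. Of 13 tested somite and rib patterning genes with 19 probe sets, 0 probe sets passed in limma in either direction, with or without its trend, and 0 in the methods' t-test. At an unadjusted p below 0.05 limma had 3 of the 19 probe sets (22.6% of all), and the median log2 fold change was -0.16. The lowest p belonged to Lfng, a glycosyltransferase of the Notch pathway that acts in the segmentation clock, at 171, 220 and 281 against 160, 131 and 115 (log2 fold change -0.68, adjusted p = 0.125, limma), and to Gli3, a Hedgehog effector, at 824, 904 and 846 against 662, 741 and 718 with 1455154_at (log2 fold change -0.28, adjusted p = 0.135, limma). The KO arrays lay below the wild-type arrays for both of these probe sets. The other Lfng probe set, 1449943_at, was under the filter with overlapping groups, at 7.87, 53.2 and 5.47 against 19.2, 13.6 and 45.4. The other 2 tested Gli3 probe sets had overlapping groups and log2 fold changes of -0.16 and 0.08 (limma's adjusted p = 0.419 and 0.867). The third probe set at an unadjusted p below 0.05 was 1424234_s_at of Meox2, a homeobox gene of the somites, named after its values were seen, at 238, 156 and 157 against 277, 233 and 310 (log2 fold change 0.57, adjusted p = 0.149, limma), with overlapping groups. The other Meox2 probe set, 1424233_at, also had overlapping groups and did not pass (log2 fold change 0.70, adjusted p = 0.341, limma). Of 10 tested limb and body wall genes with 19 probe sets, 0 probe sets were higher and 1 was lower, at a median of -0.06. The shares over all tested probe sets were 3.44% and 3.37%. Prrx1, a homeobox gene of limb and body wall mesenchyme, fell with 1439774_at from 1397, 1518 and 1477 to 824, 1054 and 1117 (log2 fold change -0.56, adjusted p = 0.0248, limma). The other 4 tested Prrx1 probe sets overlapped between the groups and had an adjusted p of 0.533 to 0.855. Without wild-type replicates 1, 2 and 3 the adjusted p of 1439774_at was 0.0744, 0.116 and 0.0896.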

How the data were processed

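Total RNA from 3 wild-type and 3 Slc39a13-KO chondrocyte samples was labeled in one cycle and hybridized by the authors to Affymetrix arrays. The deposited values are intensities on a linear scale; the authors' processing notes name MAS5 and their methods gcRMA, and a mean that is equal on all arrays (500.003, trimmed by 2% at each end), with unequal quantiles, has the form of MAS5 signals. Replicates were not pooled. Of 45101 probe sets, 34945 had 1 symbol, 932 several, 9160 none and 64 were controls; only the first were used. Names came from the platform annotation of GEO, which can be old, and all 33 Hox symbols matched the RefSeq table, which also gave the promoter windows.

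Signals were taken as log2(signal + 7.96), the pseudocount being their 10th percentile, which understates changes of dim genes. The 23294 probe sets (12715 genes) at or above the 40th percentile entered a limma fit (version 3.58.1, R 4.3.3, lmFit and eBayes with a trend) of KO minus wild-type, without covariates and with Benjamini-Hochberg adjustment over all of them and a threshold of 0.05. The fit was tested on simulated data first. Depth does not apply to arrays, and the 6 arrays limit the precision. The members and lists were chosen with earlier results of these data known. The text names in full the 8 Hox probe sets with the lowest p and the other probe sets of their genes, other Hox genes by range or as examples of a paralog group, and from each other list up to 4 genes past the threshold, or the 2 with the lowest p. Hoxd9, Hoxa10, Hoxa4, Hoxd12 and Cbx7 under the filter were named after their values were seen. Alternatives were other filters, pseudocounts and scalings, 1 value per gene, a replicate block, limma without a trend, the methods' t-test, and arrays left out. Figures were drawn with matplotlib 3.10.9 in Python 3.11.15.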

Additional observations from a re-analysis of the deposited data

How the results depend on the processing

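Under 19 other settings, 0 Hox probe sets passed in either direction. The lowest adjusted p of a Hox probe set over these was 0.0595 (limma), for Hoxa3 (1427433_s_at) without KO replicate 3. Of 484 fold changes of the 27 tested Hox probe sets, 24 changed sign, and 13 of the 27 kept their sign throughout. The counts over all probe sets, 802 higher and 785 lower, became 131 and 259 with median centring, which moved the median log2 fold change of all tested probe sets from 0.01 to -0.08, and 462 and 417 with the mean per gene. They were 47 and 61 with limma without its trend, 45 and 39 with the methods' t-test, and 90 and 96 without both arrays on which Xist was bright (wild-type replicate 3 and KO replicate 2). Leaving out 1 array at a time gave 248 to 1074 higher and 188 to 1209 lower, the least without wild-type replicate 2 and the most without KO replicate 3. The cause was not tested. The calls of genes outside the Hox family kept their sign and were lost in 2 of 19 settings for Dhrs3, 6 of 18 for Aldh1a2 and for Kdm2b, 7 of 17 for Hnrnpa1 and for Prrx1, 9 of 17 for Phc2 and 9 of 16 for Meis2, and that of Slc39a13 in 1 of 19.

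With the replicate number as a replicate block, 415 were higher and 422 lower, and 0 Hox probe sets passed. Of the named calls, the block ended that of Phc2 alone. Deviations of samples with the same number correlated at 0.03, 0.01 and -0.05, so the numbers were not taken to pair the samples. With 3 arrays per group, changes in dim Hox genes were estimated with wide intervals.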

Other observations

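Antisense genes of the Hox clusters were left out of the comparison above. Their 5 probe sets (Hoxd3os1, Hoxb5os and Hoxa11os) were all under the filter, and the groups overlapped for each. Hoxd3os1, which lies in the Hoxd cluster, gave 41.6, 39.2 and 36.4 in wild-type and 71.1, 54.2 and 37.6 in KO cells with 1460056_at, and 10.2, 38.5 and 95.1 against 136, 27.1 and 9.49 with 1430263_at. Hoxb5os gave 133, 6.62 and 45.1 against 66.8, 14.1 and 33.9. Hoxa11os gave 9.69, 22.6 and 36.0 against 63.7, 8.12 and 1.26 with 1452400_a_at, and 2.01, 9.26 and 9.95 against 44.4, 28.6 and 8.27 with 1457646_at. None had an unadjusted p below 0.05 in limma without the filter.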
